A study of Mus musculus with 12 samples.

Results

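The 10 genes described here are immediate early genes, chosen by name for their values in BLZ945 mice against vehicle mice. They are the AP-1 subunits Fos, Fosb, Fosl2, Jun, Junb and Jund, the partner factor Atf3, the zinc finger factor Egr1, the phosphatase gene Dusp1 and the mRNA decay gene Zfp36. All 10 were found among the 56735 gene symbols of the count table, and all 10 passed the filter on low counts that 13724 genes passed. Fosb passed it only through the BLZ945 libraries, so its difference from vehicle partly follows from that filter. The question was which of these genes were raised in both fractions of BLZ945 mice and which were not, library by library.

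Bulk RNA-seq was done on 12 libraries of subdural CNS-associated macrophages (sdCAMs), which reside in the leptomeninges and around vessels and were sorted as CD206+ cells from brain without choroid plexuses. Mice of all 3 groups had the genotype Mrc1CreERT2/CreERT2:R26tdT/tdT and received tamoxifen, so that cells expressing Mrc1 at that time, and their progeny, were marked by tdTomato (tdT). Mrc1 encodes CD206, which was also used for the sort, and in these mice the Cre is knocked into both copies of Mrc1. After 4 weeks, adult mice received vehicle or 200 mg per kg BLZ945, an inhibitor of the CSF-1 receptor that enters the brain, for 7 days. Cells were taken 8 weeks after treatment ended. The groups are tdT+ cells of vehicle mice, tdT+ cells of BLZ945 mice and tdT- cells of BLZ945 mice, with 4 libraries each from mice labelled F1, F2, M1 and M2, and values per library are given in that order. The tdT+ and tdT- libraries of BLZ945 mice with the same label came from the same mouse, whereas vehicle mice were other animals.

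AP-1 is a pair of proteins of the FOS, JUN and ATF families bound to DNA together. Immediate early genes are transcribed within minutes of a stimulus without new protein synthesis, mostly through MAP kinases acting on factors already bound at their promoters, and their mRNAs are usually short-lived. In macrophages they respond to growth factors such as CSF-1, to microbial products and to cytokines, and they are also known to respond to enzymatic dissociation of tissue. Several of their products limit the response: DUSP1 removes the activating phosphates of MAP kinases and ZFP36 (tristetraprolin) directs mRNAs with AU-rich elements to decay.

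Library totals lay between 19969308 and 23395058 counts, with 14230 to 15866 genes detected per library. sdCAM markers such as Mrc1, Cd163 and Pf4 were present in every group, with a summed level of 9 markers between 288449 and 336425 normalised counts (counts divided by the size factor of the library) in vehicle cells, 328327 and 369037 in tdT+ cells of BLZ945 mice and 195319 and 255329 in tdT- cells. Csf1r weighed most in these sums, with group means of 160349 in vehicle and 141088 in tdT- cells. The same means were 29301 and 6088 for Cd163, 7614 and 3318 for Mrc1 and 45134 and 20368 for Pf4. Cd14 (13326 and 18041) and Aif1 (14323 and 17872) went the other way. The summed level of 6 microglia markers lay between 46907 and 76085 in vehicle cells, between 80456 and 104635 in tdT+ cells of BLZ945 mice and between 212440 and 457232 in tdT- cells. The tdT- library F2 also held neutrophil RNA, with 131922 normalised counts of S100a8, against at most 18.43 in any other library. Mitochondrial genes took 0.907 ± 0.177% of counts in vehicle libraries, 0.562 ± 0.0334% in BLZ945 tdT+ libraries and 0.446 ± 0.133% in tdT- libraries (SD, n = 4). Both BLZ945 groups thus had more microglia marker RNA and a lower mitochondrial share than vehicle in every library, and the part of this in the differences from vehicle below was not tested. The tdTomato entry had 0 counts in all 12 libraries and could not be used to check the sort. The library names mark vehicle libraries as pre and BLZ945 libraries as Post, and do not say what these words refer to. If they refer to time of isolation, treatment and time cannot be told apart in any comparison with vehicle. In bulk RNA, fewer expressing cells and less RNA per cell cannot be told apart either.

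Fos, Jun, Dusp1 and Zfp36 were higher in every BLZ945 library than in any vehicle library, by 2.52-fold to 5.37-fold on group means. Jund lay above vehicle in every BLZ945 library too, but by 1.18-fold and 1.27-fold only. Junb was clearly apart from vehicle in tdT- cells alone, and Egr1, Atf3 and Fosl2 overlapped vehicle in both fractions. Fosb was near the detection limit. In these contrasts the values chose the genes, so they are described without a test, and both contrasts share the same 4 vehicle libraries.

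Counting all 10, 6 genes had every BLZ945 tdT+ library above every vehicle library, beside 3.58% of the 13724 genes tested. Another count of 6 held for tdT- libraries, beside 4.82% of genes tested, and 5 genes lay above vehicle in both fractions, beside 0.823%. Since the genes were picked for this pattern, nothing is read from these shares. Under 2 other scalings, TMM factors and division by the library total, the last count was 4, because Jund then overlapped vehicle, while Fos, Jun, Dusp1 and Zfp36 stayed apart.

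**Figure D1:**
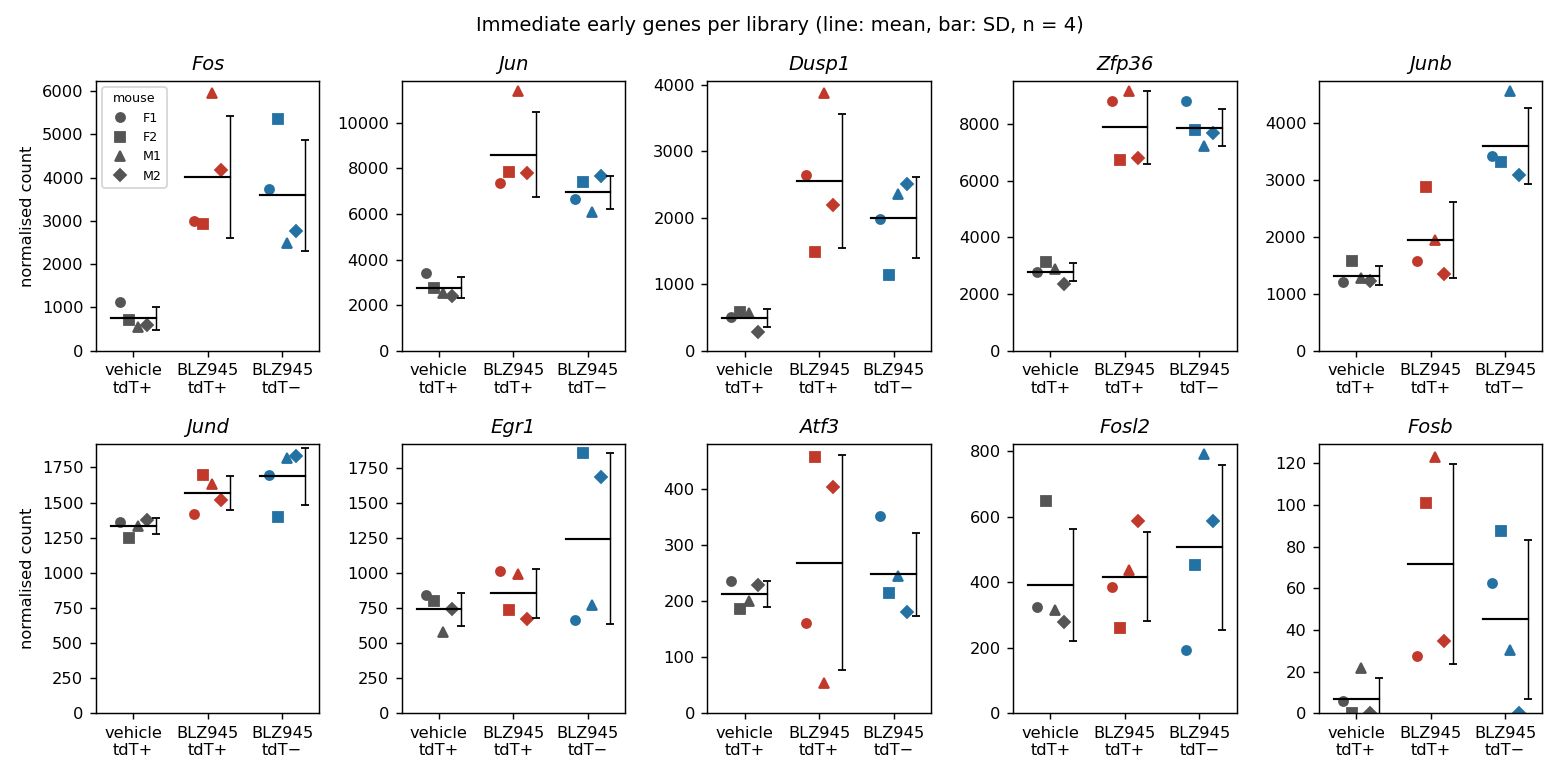
Normalised counts of the 10 genes in each of 12 libraries, by group on the x axis. Points are libraries with the mouse label as symbol, lines are group means and bars the SD (n = 4, cut at 0 for Fosb). Fos, Jun, Dusp1 and Zfp36 show no overlap between vehicle and either BLZ945 fraction, Junb stands apart in tdT- cells, and Egr1, Atf3 and Fosl2 overlap throughout.

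Fos (GRCm39 chromosome 12, 85520664 to 85524047, plus strand) encodes the FOS subunit, which binds DNA only as a partner of a JUN protein. It had 1125, 715, 557 and 590 normalised counts in vehicle cells. BLZ945 tdT+ cells had 2993, 2920, 5960 and 4181, and tdT- cells had 3749, 5351, 2491 and 2765. The lowest BLZ945 library, tdT- M1, was thus above the highest vehicle library, F1, and the groups did not overlap. The group means were 747 ± 261, 4014 ± 1420 and 3589 ± 1293 (SD, n = 4). The log2 fold change against vehicle, shrunken towards 0 as far as its error is large, was 2.34 ± 0.31 (SE) in tdT+ cells and 2.18 ± 0.31 in tdT- cells. The 2 fractions did not rank by mouse in the same way, since M1 was the highest tdT+ library and the lowest tdT- library.

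Jun (chromosome 4, 94937271 to 94940459, minus strand) encodes the JUN subunit, the main activating partner of FOS. Its vehicle libraries held 3405, 2734, 2518 and 2384 normalised counts, the BLZ945 tdT+ libraries 7364, 7835, 11377 and 7801 and the tdT- libraries 6636, 7403, 6079 and 7656. The tdT+ library M1 stood well above the rest of its group, while the other 7 BLZ945 libraries lay between 6079 and 7835. The log2 fold change against vehicle was 1.61 ± 0.17 in tdT+ cells and 1.29 ± 0.17 in tdT- cells, or 3.11-fold and 2.52-fold on group means. The antisense gene Junos shares 7.28% of the exon bases of Jun and had 444 counts in all, against 74744 for Jun. Counting ignored strand, so reads in the shared bases cannot be told apart.

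Dusp1 (chromosome 17, 26724564 to 26781102, minus strand) encodes a nuclear phosphatase that inactivates p38, JNK and ERK. Vehicle cells had 512, 586, 569 and 287 normalised counts. BLZ945 tdT+ cells had 2649, 1486, 3879 and 2188, and tdT- cells had 1986, 1144, 2353 and 2511. F2 was the lowest library of both fractions and was still above all vehicle libraries. The log2 fold change was 2.29 ± 0.34 in tdT+ cells and 1.92 ± 0.34 in tdT- cells, close in size to that of Fos.

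Zfp36 (chromosome 7, 28076209 to 28079678, minus strand) encodes tristetraprolin, the decay factor introduced above. It had 2779, 3120, 2872 and 2342 normalised counts in vehicle cells, 8803, 6750, 9183 and 6809 in tdT+ cells of BLZ945 mice and 8815, 7800, 7228 and 7690 in tdT- cells. Every BLZ945 library lay far above the vehicle range, and the group means of both fractions were 7886 ± 1287 and 7883 ± 669 (SD, n = 4). The log2 fold change was 1.48 ± 0.14 in each fraction. In the tdT+ fraction, M1 was the highest library for Fos, Fosb, Jun, Dusp1 and Zfp36 alike, whereas in the tdT- fraction the highest library differed between these genes.

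**Figure D2:**
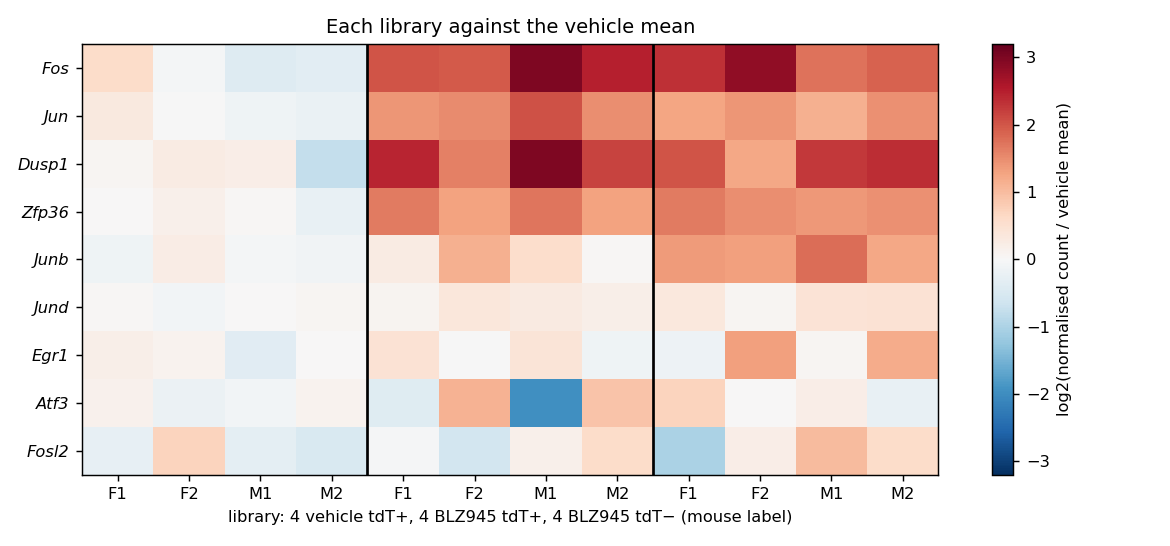
Log2 ratio of the normalised count in each library (x axis, by group and mouse) to the mean of the 4 vehicle libraries, for 9 genes (y axis). Fosb is left out because 2 vehicle libraries had 0 counts. The 4 upper rows are above 1 in all 8 BLZ945 libraries, the lowest being 1.14 for Jun, Junb is above 1 in all 4 tdT- libraries and in 1 tdT+ library, and the lower rows are mixed.

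Junb (chromosome 8, 85701113 to 85705347, minus strand) encodes a JUN protein that activates more weakly than JUN and can oppose it. Its vehicle values were 1208, 1569, 1275 and 1229 normalised counts. BLZ945 tdT+ cells had 1581, 2879, 1947 and 1354, and tdT- cells had 3409, 3307, 4563 and 3090. All tdT- libraries lay above all other libraries, whereas the tdT+ library M2 fell inside the vehicle range and F2 was the highest tdT+ library. The log2 fold change against vehicle was 0.28 ± 0.31 in tdT+ cells and 1.37 ± 0.24 in tdT- cells, and the unshrunken estimate in tdT+ cells was 0.56 with a 95% interval from 0.09 to 1.02. Junb shares 7.52% of its exon bases with Prdx2 on the opposite strand, and reads there cannot be told apart.

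The promoters of Fos, Jun, Dusp1 and Zfp36, the 4 genes clearly above vehicle in both fractions, and of Junb, which was not, are shown to compare the elements that immediate early factors are known to use. They are the 250 bases before the start in RefSeq's table (build GRCm38.p6, not the build of the counts), and 9 of the 10 genes had an entry. Capitals mark matches on either strand to the cyclic AMP response element (CRE, TGACGTCA) or its shorter core TGACG, the AP-1 site TGANTCA, the AP-1 variant of the Jun promoter TGACATCA, the TATA box TATAAA, the CCAAT box CCAAT and the CArG box, which is bound by SRF. The CRE contains this core.
Fos: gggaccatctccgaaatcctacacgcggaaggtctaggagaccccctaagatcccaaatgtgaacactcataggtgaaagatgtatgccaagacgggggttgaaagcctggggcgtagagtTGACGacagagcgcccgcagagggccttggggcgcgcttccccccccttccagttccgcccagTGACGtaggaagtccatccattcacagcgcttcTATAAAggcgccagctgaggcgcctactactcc
Dusp1: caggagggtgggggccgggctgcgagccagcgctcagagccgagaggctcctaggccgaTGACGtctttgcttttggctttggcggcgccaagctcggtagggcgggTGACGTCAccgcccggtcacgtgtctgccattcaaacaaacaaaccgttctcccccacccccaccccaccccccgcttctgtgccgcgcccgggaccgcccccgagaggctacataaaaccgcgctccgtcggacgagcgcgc
Zfp36: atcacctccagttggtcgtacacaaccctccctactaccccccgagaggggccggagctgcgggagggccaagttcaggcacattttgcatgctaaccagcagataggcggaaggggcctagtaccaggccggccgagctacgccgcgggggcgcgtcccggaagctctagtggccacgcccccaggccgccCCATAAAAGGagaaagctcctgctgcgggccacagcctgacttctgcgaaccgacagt
Jun: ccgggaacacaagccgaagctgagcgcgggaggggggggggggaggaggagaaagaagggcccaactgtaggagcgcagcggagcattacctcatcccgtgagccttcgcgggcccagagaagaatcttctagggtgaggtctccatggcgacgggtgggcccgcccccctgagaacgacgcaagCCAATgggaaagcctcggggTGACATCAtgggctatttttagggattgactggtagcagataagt
Junb: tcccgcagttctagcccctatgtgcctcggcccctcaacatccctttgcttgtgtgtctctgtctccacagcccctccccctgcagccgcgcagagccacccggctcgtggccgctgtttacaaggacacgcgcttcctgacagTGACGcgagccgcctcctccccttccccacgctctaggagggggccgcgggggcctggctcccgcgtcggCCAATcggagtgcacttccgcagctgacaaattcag
The windows are chr12:85473640-85473889 on the plus strand for Fos, and on the minus strand chr17:26508473-26508722 for Dusp1, chr7:28379229-28379478 for Zfp36, chr4:95052223-95052472 for Jun and chr8:84978749-84978998 for Junb.

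Dusp1 was the only one of the 9 with a whole CRE, 136 to 143 bases before the start, against 1.55% of 32851 promoter windows of that length. The core TGACG was found in Fos, Fosb, Junb, Atf3 and Dusp1, beside 17.8% of all windows, and in Fos it lay 62 to 66 and 125 to 129 bases before the start. Zfp36 held a CArG box 49 to 58 bases before the start, a motif in 1.47% of windows. Jun held TGACATCA 38 to 45 bases before the start (2.93% of windows), and no window of the 9 held TGANTCA, found in 6.75% of all. Fos had a TATA box (12.4% of windows), and Jun and Junb a CCAAT box (33.8%). Hence no searched motif was common to the windows of Fos, Jun, Dusp1 and Zfp36, and TGACG was in windows of genes on either side of the division, such as Dusp1 and Junb. A match describes letters and is no evidence of binding, and a missing match says only that these letters are not in this window.

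Jund (chromosome 8, 71151599 to 71153265, plus strand) encodes the JUN protein that is usually expressed steadily. It had 1365, 1250, 1331 and 1378 normalised counts in vehicle cells, 1419, 1697, 1629 and 1520 in tdT+ cells of BLZ945 mice and 1695, 1399, 1815 and 1833 in tdT- cells. The lowest BLZ945 library, tdT- F2, lay just above the highest vehicle library, M2, and the log2 fold changes were 0.13 ± 0.13 and 0.30 ± 0.14. The predicted gene Gm11175 overlaps 52.6% of the exon bases of Jund and had 0 counts. Counting ignored strand, so reads in the shared bases may have been counted for neither gene. The 0 counts therefore do not show that Jund lost no reads there.

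Egr1 (chromosome 18, 34992876 to 34998037, plus strand) encodes a zinc finger factor that, like Fos, is a classical target of SRF. Vehicle libraries held 843, 804, 580 and 745 normalised counts, BLZ945 tdT+ libraries 1020, 740, 994 and 671 and tdT- libraries 669, 1859, 775 and 1688. In tdT- cells F2 and M2 lay 1.32 and 1.18 above the vehicle mean on the log2 scale, and F2 was the library with neutrophil RNA. F1 and M1 lay inside the vehicle range. The log2 fold change was 0.03 ± 0.12 in tdT+ cells and 0.48 ± 0.35 in tdT- cells. Unshrunken 95% intervals ran from -0.47 to 0.88 and from 0.07 to 1.42. With 1 library left out, the shrunken value in tdT- cells ran from 0.27 to 0.76.

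Atf3 (chromosome 1, 190902493 to 190950236, minus strand), a stress-induced factor that mostly represses, had 236, 187, 201 and 229 normalised counts in vehicle cells and 352, 215, 246 and 181 in tdT- cells. In BLZ945 tdT+ cells it ran from 54.35 in M1 to 457 in F2, with 162 in F1 and 404 in M2, a spread wider than any difference between groups. Fosl2 (chromosome 5, 32293145 to 32315186, plus strand), which encodes FRA2, had 325, 647, 316 and 279 in vehicle cells, 384, 261, 436 and 587 in tdT+ cells and 193, 452, 792 and 586 in tdT- cells. Both genes overlapped across all 3 groups. Unshrunken 95% intervals for these 2 genes against vehicle ran from -0.91 at the lowest to 1.46 at the highest, so changes of about that size would not have been resolved.

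Fosb (chromosome 7, 19036621 to 19043976, minus strand), a FOS family member often induced with Fos, was counted 506 times in all 12 libraries. It had 6.015, 0, 21.64 and 0 normalised counts in vehicle cells, 27.61, 101, 123 and 34.61 in tdT+ cells and 62.59, 87.56, 30.59 and 0 in tdT- cells. A count of 3 corresponded to between 2.60 and 3.16 normalised counts, so 3 libraries were below what could be detected. All tdT+ libraries lay above vehicle and tdT- libraries did not. The unshrunken log2 fold change was 3.37 (95% interval 0.24 to 6.50) in tdT+ cells, with a 95% interval from -0.43 to 5.83 in tdT- cells, while the shrunken values were 0.02 and 0.08.

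**Figure D3:**
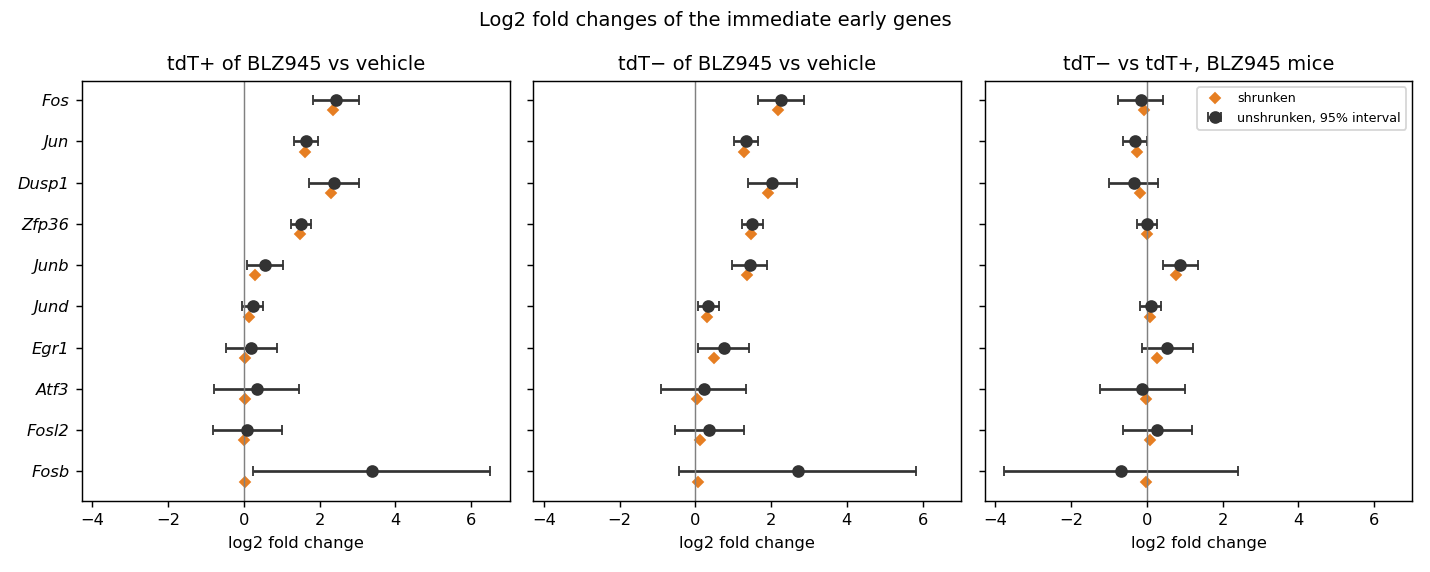
Log2 fold changes of the 10 genes in 3 contrasts (x axis). Black points are unshrunken estimates with 95% intervals and orange diamonds the shrunken values. Fos, Jun, Dusp1 and Zfp36 lie above 1 against vehicle in both fractions, Junb in tdT- cells, and between the fractions the interval of Junb (0.43 to 1.35) lies above 0.

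The contrast of both fractions within BLZ945 mice rests on libraries of one treatment, and was tested. The genes were picked for their values against vehicle, with these libraries known, so this test is not independent of the choice. A gene raised more in tdT- than in tdT+ cells, as Junb was, would tend to differ between the fractions. The adjusted p of Junb is therefore no independent support. The test was fitted over all genes, of which 6.32% had an adjusted p of at most 0.05 (either direction), the threshold at which a gene is said to be called, to rise or to fall. Of the 10 genes, Junb alone was called. Its level was higher in tdT- than in tdT+ cells in 4 of 4 mice, by 1.15-fold to 2.34-fold, with a log2 fold change of 0.78 ± 0.24 (SE) and an adjusted p of 0.00455. All 4 tdT- libraries lay above all 4 tdT+ libraries, as for 4.56% of genes tested and no other gene of the 10. The call was lost in edgeR's quasi-likelihood test (log2 fold change 0.87, adjusted p = 0.0565). All 6 microglia markers were higher and 7 of 9 sdCAM markers lower in tdT- cells, and the tdT- library M1, the highest for Junb, was also the highest for P2ry12 (106728 normalised counts, against 42296 to 67976 in the other tdT- libraries). The part of this in the Junb result was not tested. Without the tdT- library F2, which held neutrophil RNA, the log2 fold change of Junb was 0.80 (adjusted p = 0.0087).

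The other 9 genes were not called between the fractions, the lowest adjusted p being 0.347 for Jun. For Zfp36 the unshrunken difference was 0.00 with a 95% interval from -0.27 to 0.27, and for Jund 0.11 (-0.17 to 0.38). Jun was lower in tdT- cells in 4 of 4 mice, by a log2 fold change of -0.31 (-0.63 to 0.01), and this did not pass the test. Intervals were wider for Fos (-0.76 to 0.44), Dusp1 (-1.0 to 0.30) and Egr1 (-0.13 to 1.22). The median unshrunken log2 fold change over the 10 genes was -0.06, beside 0.00 over all genes tested.

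Per kilobase of exon, Jun had the highest level of the 10 in vehicle cells, with 866 ± 142 normalised counts per kb (SD, n = 4), followed by Zfp36 at 801 ± 93.5 and Jund at 798 ± 34.6, which do not differ beyond their spread. Junb (574 ± 73.1), Fos (317 ± 111), Egr1 (166 ± 25.9), Dusp1 (148 ± 41.7), Atf3 (99.0 ± 10.7), Fosl2 (40.4 ± 17.7) and Fosb (1.11 ± 1.64) followed, and Egr1 and Dusp1 lay within their spread of each other. In BLZ945 tdT+ cells Jun (2695 ± 586), Zfp36 (2273 ± 371) and Fos (1706 ± 604) led, and Fos had moved above Jund (940 ± 73.4). In tdT- cells Zfp36 (2272 ± 193) and Jun (2177 ± 226) were followed by Junb (1561 ± 287) and Fos (1526 ± 550), whose spreads overlap. The level of Jund per kb may be too low in all groups, since reads in the bases shared with Gm11175 may not have been counted. Its place in these orders is therefore uncertain.

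The make-up of the JUN family mRNA shifted with the unequal changes of its members. Jun made up 38.5 ± 3.93% of the level per kb of Jun, Junb and Jund in vehicle cells, 60.0 ± 5.95% in tdT+ cells of BLZ945 mice and 46.0 ± 5.56% in tdT- cells (SD, n = 4). Junb made up 25.7 ± 3.28%, 18.7 ± 5.31% and 32.8 ± 5.09%, and the tdT- libraries (27.7% to 39.8%) all lay above the tdT+ libraries of BLZ945 mice (14.9% to 26.5%). Jund fell as a share from 35.8 ± 2.97% to 21.2 ± 2.16% and 21.3 ± 2.03%, although its own level did not fall. Of the FOS family, Fos alone made up 87.9 ± 4.78% of the level in vehicle cells, 96.8 ± 0.484% in tdT+ and 95.8 ± 2.58% in tdT- cells of BLZ945 mice. These shares are descriptions of the same values and were not tested. Because the level of Jund per kb may be too low, its share may be too low and those of Jun and Junb too high.

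**Figure D4:**
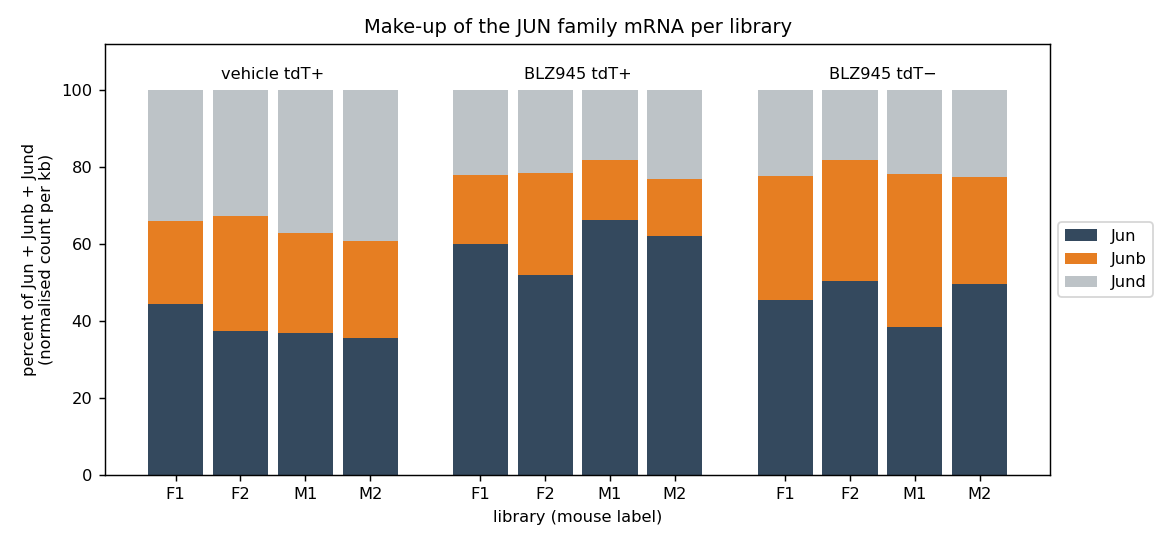
Share of Jun, Junb and Jund in the summed normalised count per kb of the 3 genes (y axis, percent) in each library (x axis, mouse label, by group). Jun takes 35.5% to 44.3% in vehicle libraries and 52.0% to 66.2% in BLZ945 tdT+ libraries, and Junb takes more in each tdT- library than in any tdT+ library of BLZ945 mice.

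The genes whose levels were most like that of Fos over the 12 libraries, among 9278 others whose mean was 100 normalised counts or more, were Jun (Pearson's r = 0.97), Zfp36 (0.938), Meg3 (0.921), Ier2 (0.905) and Lrp1 (0.90). Dusp1 was at rank 10 (0.861), whereas Jund (0.601), Junb (0.574), Egr1 (0.449), Fosl2 (0.125) and Atf3 (-0.095) were less alike. Meg3, a long noncoding RNA that is no immediate early gene by class, had 230, 201, 143 and 109 normalised counts in vehicle cells, 1247, 911, 889 and 1814 in tdT+ cells and 824, 1070, 1195 and 1069 in tdT- cells. Its log2 fold changes against vehicle were 2.76 ± 0.32 and 2.53 ± 0.32, given without a test because Meg3 was picked for its likeness to Fos over these libraries. Egr1 had other neighbours, Set (0.956), Serbp1 (0.922), Nme7 (0.874), Ifi44 (0.801) and Ezr (0.80), none of them one of the 10. The 3 groups are part of every such r, which is given as a description.

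A list of 32 other immediate early genes, of which 29 could be tested, was then examined. In tdT+ cells of BLZ945 mice against vehicle, DESeq2 called 0 of 29 and edgeR 0, 9 had an unadjusted p under 0.05, and 0.955% of all genes were called. The median shrunken log2 fold change was 0.01, beside 0.00 over all genes. Shrinkage draws uncertain changes towards 0, so this median does not show that the list was unmoved. Myc, a growth regulator, had a log2 fold change of 0.65 ± 0.28 (adjusted p = 0.0689), Btg2, which restrains proliferation, 0.51 ± 0.23 (adjusted p = 0.0854) and Ier2 0.42 ± 0.19 (adjusted p = 0.119). Leaving out vehicle F2 gave 2 calls, Myc (0.78, adjusted p = 0.0257) and Rhob (0.70, adjusted p = 0.00896), and leaving out the tdT- library F1 or M2 gave Btg2 and Myc. Rhob was also called without the tdT+ library F2 (0.66, adjusted p = 0.0153), Myc without tdT+ M2 (0.75, adjusted p = 0.0485) and Ier2 without tdT- F2 (0.45, adjusted p = 0.0244).

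In tdT- cells against vehicle, 5 of 29 rose and 0 fell, against 6.76% of all genes called in either direction. The median shrunken log2 fold change was 0.09, beside 0.01 over all genes. Myc rose by 0.98 ± 0.25 (adjusted p = 0.000475), with 918, 1294, 960 and 970 normalised counts in vehicle cells and 2937, 2261, 1943 and 1563 in tdT- cells. Rhob, a small GTPase, rose by 0.87 ± 0.22 (adjusted p = 0.000278) and Btg1 by 0.58 ± 0.12 (adjusted p = 2.4e-05), and edgeR called these 3 genes too. Btg2 (0.57 ± 0.21, adjusted p = 0.0246) and Ppp1r15a, which restores protein synthesis after stress (1.01 ± 0.41, adjusted p = 0.0184), were called less firmly. The call of Btg2 was lost without vehicle F2 or M1 or tdT- M1 or M2 (adjusted p between 0.0596 and 0.142), and that of Ppp1r15a without vehicle F2 or M2 or tdT- F2, M1 or M2 (0.0510 to 0.0818). Of the 29 genes, 2 (Ier2 and Myc) had all 8 BLZ945 libraries above all vehicle libraries, beside 0.823% of all genes tested. Ccn1 had all tdT- libraries (163, 0, 203 and 0 normalised counts) below all vehicle libraries (1558, 1157, 706 and 440). It was not called by DESeq2 (adjusted p = 0.192). Egr2, a relative of Egr1, had 65.16, 393, 84.84 and 0 normalised counts in vehicle cells and 0, 380, 0 and 1699 in tdT- cells, a spread too wide to show a change or its absence. Leaving out 1 library also gained calls, Gadd45g without vehicle F2 (2.25, adjusted p = 0.00463), Ier5 without vehicle M2 (0.39, adjusted p = 0.0416) and Sik1, which was lower, without tdT- M1 (-0.20, adjusted p = 0.0469).

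Between the fractions, 1 of 29 was called, beside 6.32% of all genes tested. Btg1 was higher in tdT- cells by 0.76 ± 0.12 (adjusted p = 7.16e-09), with 6459, 5935, 6556 and 6764 normalised counts against 4076, 4077, 3181 and 3510 in tdT+ cells. With the mouse as a block the count was 3, through Nr4a1 (132, 222, 242 and 328 normalised counts in tdT- and 4.601, 69.12, 0 and 8.39 in tdT+ cells, adjusted p = 0.000489) and Ccn1, which was lower (adjusted p = 0.00273). Ccn1, which encodes a secreted matrix protein, had 163, 0, 203 and 0 normalised counts in tdT- and 2104, 407, 2990 and 2135 in tdT+ cells, groups that did not overlap. Nr4a1 was also called without the tdT+ library F2 (adjusted p = 0.00164) or vehicle M2 (0.0288). Leaving out tdT- F2, M1 or M2 added Ccn1 (adjusted p = 0.0230, 0.0356 and 0.0260), and leaving out tdT- M1 also added Plk2, which was lower by -1.49 (adjusted p = 0.000268).

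**Figure D5:**
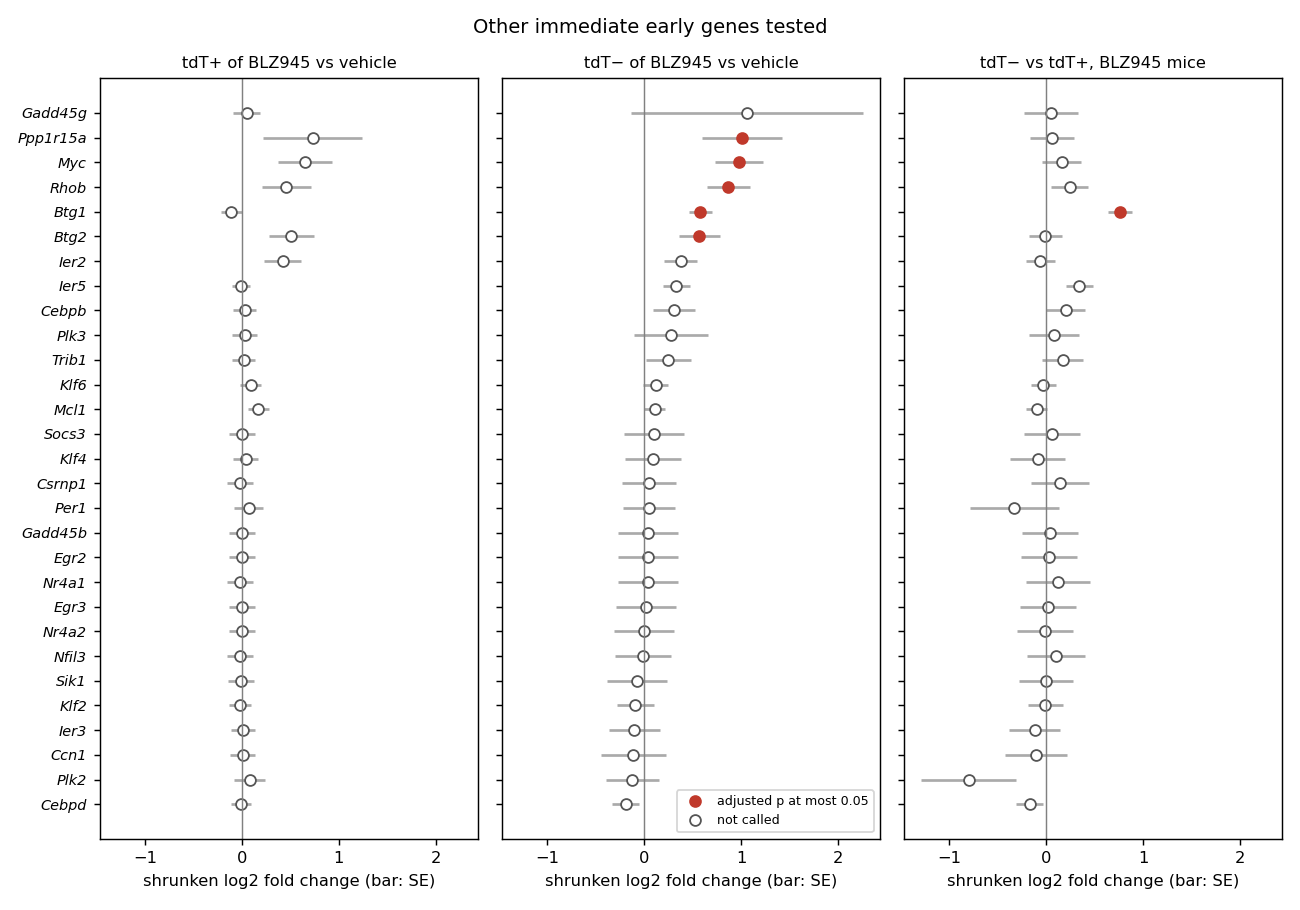
Shrunken log2 fold changes (x axis, bars are SE) of the 29 other immediate early genes tested, in 3 contrasts. Red points have an adjusted p of at most 0.05: 0 in tdT+ cells against vehicle, 5 in tdT- cells against vehicle and 1, Btg1, between the fractions.

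Of 12 further AP-1 and related bZIP genes, 10 could be tested. None was called in tdT+ cells against vehicle by DESeq2 or edgeR, with 0 at an unadjusted p under 0.05. In tdT- cells Maf, a factor of macrophage differentiation, fell by 0.84 ± 0.11 (adjusted p = 3.98e-12) against vehicle. Against tdT+ cells of the same mice its difference was -0.67 ± 0.12 (adjusted p = 4.28e-07). Batf3 was called in tdT- cells against vehicle (1.12 ± 0.57, adjusted p = 0.037), but leaving out any of 8 libraries, all except vehicle F1 and M2 and tdT+ F2 and M2, ended this call (0.0511 to 0.147). Fosl1 and Maff had too few counts to test.

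Most genes around the MAP kinase route passed no test, and the same holds for all genes tested. Over all genes tested, 0.955% were called in tdT+ cells against vehicle, 6.76% in tdT- cells against vehicle and 6.32% between the fractions. These shares apply to the counts of every gene list, and nothing about the route is read from few calls. Of 11 other MAP kinase phosphatases, 8 could be tested. Dusp6, the phosphatase of ERK, rose in tdT+ cells against vehicle by 0.41 ± 0.10 (adjusted p = 0.00144), with 13326, 14197, 12098 and 14336 normalised counts in vehicle and 16948, 19817, 19520 and 17864 in tdT+ cells. It was lower in tdT- than in tdT+ cells by -0.44 ± 0.10 (adjusted p = 0.000191), and edgeR called the second difference but not the first (adjusted p = 0.244). Dusp7, lower by -0.39 ± 0.14 in tdT- cells against vehicle (adjusted p = 0.0283), lost its call without vehicle F2, M1 or M2 or tdT- F2, M1 or M2 (0.0569 to 0.127). Of 19 MAP kinases and upstream kinases, 0 were called in tdT+ cells against vehicle (1 at an unadjusted p under 0.05, 0 by edgeR). In tdT- cells Rps6ka1, which encodes the kinase RSK1, rose by 0.49 ± 0.10 against vehicle (adjusted p = 1.31e-05) and was higher than in tdT+ cells by 0.40 ± 0.10 (adjusted p = 0.000904; 0.0535 in edgeR). Map3k1 was lower against vehicle (-0.50 ± 0.20, adjusted p = 0.0373), a call that ended without any of 7 libraries, vehicle F1, F2 or M2, tdT+ F2 or M1 and tdT- F2 or M1 (0.0504 to 0.165).

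A list of 14 genes held SRF, TCF, CREB and MEF2 factors and coactivators, some of which drive transcription of Fos and Egr1. Only Elk3 was called, in tdT- cells against vehicle (0.67 ± 0.21, adjusted p = 0.00659, and 0.0554 in edgeR). In tdT+ cells against vehicle and between the fractions 0 were called by DESeq2 and by edgeR, and 1 gene in each had an unadjusted p under 0.05. Srf itself had log2 fold changes of -0.01 ± 0.12 and -0.25 ± 0.34 against vehicle. The 6 other factors of AU-rich mRNA decay, relatives or partners of Zfp36, gave 0 calls in any contrast by DESeq2 or edgeR, and 2, 0 and 0 of them had an unadjusted p under 0.05. Zfp36l1 had log2 fold changes of 0.23 ± 0.19 and 0.21 ± 0.16 against vehicle and Zfp36l2 of 0.15 ± 0.10 and 0.06 ± 0.10.

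Of 10 cytokine genes whose mRNAs ZFP36 is known to target, 8 could be tested. In tdT+ cells 0 were called by DESeq2 or edgeR against vehicle (2 at an unadjusted p under 0.05). Tnf had a shrunken log2 fold change of 0.03 ± 0.13. Its group means were 115 ± 85.6 normalised counts in vehicle and 197 ± 83.1 in tdT+ cells (SD, n = 4), so a change was not resolved. In tdT- cells Il1b (1.44 ± 0.67, adjusted p = 0.0222) and Ccl3 (0.98 ± 0.41, adjusted p = 0.0212) rose against vehicle and edgeR called 0. The call of Il1b was lost without vehicle F1 or M1 or tdT- M1 or M2 (0.0818 to 0.102), and that of Ccl3 without vehicle F2 or M1 or tdT- F1 (0.0668 to 0.126). Between the fractions 0 of 8 were called by either tool, with 1 at an unadjusted p under 0.05. Of 12 heat shock genes, which respond to protein stress, DESeq2 and edgeR called 0 in each contrast, with 0, 1 and 2 at an unadjusted p under 0.05 in tdT+ against vehicle, tdT- against vehicle and tdT- against tdT+ cells. Hspa1a had shrunken log2 fold changes of 0.01 ± 0.13 and -0.01 ± 0.29 against vehicle. Its vehicle libraries ran from 5.013 to 515 normalised counts, a spread too wide to show a change or its absence.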

How the data were processed

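Bulk RNA-seq of sdCAMs was analysed in 12 libraries, 4 per group, grouped by the labels. The deposited values are raw counts per gene symbol, which the authors obtained with STAR 2.7.11a and, per the file headers, with featureCounts 2.0.6 on exons of GENCODE M33 (GRCm39) plus a tdTomato entry, ignoring strand and dropping multi-mapping reads. Read demultiplexing used bcl2fastq 2.20 per the labels. Libraries were made from amplified cDNA, so counts are not independent molecules, and the floor of 3 counts covers counting error only. All columns were assigned to libraries. The vehicle column with library number 4 is headed M1 but its label gives M2, which was used, and this affects mouse labels only.

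A gene was removed when 75% or more of the libraries had under 10 counts. In R 4.3.3, DESeq2 1.42.0 (two-sided Wald test, all 12 libraries, group as the only term, median-of-ratios size factors) was run as in the methods of the study, with apeglm 1.24.0 shrinkage of log2 fold changes and Benjamini-Hochberg adjustment over 13724 genes. A gene was called at an adjusted p of at most 0.05. Normalised counts are counts divided by size factors. Log2 fold changes given with an SE are shrunken, so a value near 0 can be a change that was not resolved. The fit was tested on simulated data. Replicates differed by a chi-square of at least 45.6 per degree of freedom, far above sampling noise. The 10 genes, the gene lists and the tests were chosen with earlier results of these data known. Genes named are the 10, those called in each list with a few of high level or close kinship, and the 5 genes most like Fos and Egr1. One gene of the lists is not reported here. Alternatives were edgeR 4.0.16 with TMM, TMM factors in DESeq2, no filter, a log2 fold change of at least 1, the mouse label as a block and leaving out each library. Promoters were read from RefSeq's table, build GRCm38.p6, and motifs were searched on both strands.

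Both libraries of a BLZ945 mouse share its label. The correlation of their deviations from group means was between -0.00463 and 0.0352 over all genes, and between 0.106 and 0.264 over genes whose mean reached 1000 normalised counts. That nothing says the vehicle mice were paired with BLZ945 mice limits the block to the comparison of the fractions.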

Additional observations from a re-analysis of the deposited data

Results flagged for a closer look

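Of 30 groups of 4 libraries (10 genes in 3 groups), 2 held a library far from the other 3, as chance gives in about 1 of 20 groups. Fosl2 had 647 normalised counts in the vehicle library F2, and the gap to the next library was 0.874 of the range of its group. Jun had 11377 normalised counts in the BLZ945 tdT+ library M1, with a gap of 0.883 of the range. Without that library the log2 fold change of Jun in tdT+ cells against vehicle was 1.45, beside 1.61 with it.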

How the results depend on the processing

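The direction of Junb between the fractions held in every alternative run. Its call was lost in edgeR (log2 fold change 0.87, adjusted p = 0.0565) and where a log2 fold change of at least 1 was required, and its log2 fold change lay between 0.62 and 1.08 when 1 library was left out. With the mouse as a block it was 0.83 (adjusted p = 0.00257), so the pairing of tdT+ and tdT- libraries of the same mouse did not change the call. The number of the 10 genes called between the fractions was 1 with any library left out, and 0 with edgeR or with a log2 fold change of at least 1. The number above vehicle in both fractions lay between 5 and 6 with 1 library left out and was 4 under the 2 other scalings, alternatives chosen after the data were seen. It was 6 through Junb without vehicle F2 or tdT+ M2, and through Fosb without tdT- M2. The log2 fold changes of Fos, Jun, Dusp1 and Zfp36 against vehicle stayed positive in every setting, and with 1 library left out ran from 1.22 for Jun to 2.62 for Fos. For Fosb in tdT+ cells, the value was 3.37 without shrinkage and 3.34 in edgeR, since shrinkage alone brings it near 0.

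Of the other immediate early genes, calls in tdT+ cells against vehicle were 2 without the filter and 2 with the block, and 0 to 2 with 1 library left out. In tdT- cells against vehicle they were 1 with the fold threshold, 3 in edgeR, 8 without the filter and 3 to 5 with 1 library left out, and the block gave 4 higher and 1 lower. Between the fractions they were 0 with the fold threshold, 3 without the filter, 3 with the block and 1 to 3 with 1 library left out.

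Over all genes, calls in tdT+ cells against vehicle (131) were 23 with the fold threshold, 9 in edgeR, 256 without the filter, 367 with the block and 129 to 226 with 1 library left out (213 without vehicle F2, 226 without tdT- F2). In tdT- cells against vehicle (928) they were 350 with the fold threshold, 446 in edgeR and 806 to 1125 with 1 library left out. Between the fractions (868) they were 309, 377 and 685 to 1034. The vehicle libraries share only a label with the others, so the block there pairs no animals. The cause of these shifts was not tested. Depth limits Fosb and, among the other genes, Egr2, Egr3, Nr4a1, Ccn1 and Sik1, which had 0 counts in some libraries, and the listed genes with too few counts to test.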
